A study of Mus musculus with 175 samples.

Results

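P2+ MEPs were compared with P2- MEPs in single-cell RNA-seq data of mouse fetal liver, with the erythroid and megakaryocytic marker genes and a further list of much-described genes of these populations, surface antigens among them, set aside. MEPs are megakaryocyte-erythroid progenitors and CMPs are common myeloid progenitors. The cells were chosen by their labels, and 47 of 48 P2+ MEPs and 56 of 57 P2- MEPs passed the cell filters, so that 103 of 105 MEPs were compared out of 172 of 175 cells in all. Each sample is 1 cell with a library of its own. All cells came from livers of embryonic day 14.5 that were pooled from 2 litters of a C57BL/6 by ICR cross, so each sorted population is 1 sample without a replicate and no test between populations was possible. All cells carried 1 copy of a Runx1 reporter allele, in which human CD4 (hCD4) marks transcription from the P2 promoter. The genotype label writes this allele as P2-GFP::P2-hCD4/+ and the protocol as P1-GFP::P2-hCD4, and the reporter sequences were not among the counted features. P2+ and P2- cells are those with and without hCD4 on their surface, within a gate that per the methods was Lin-, Sca1-, cKit+, CD16/32 low, CD34-, CD41- and CD150+. The P2- and P2+ CMPs (27 and 42 cells after filtering), which were sorted as CD34+ and are named low and high in the labels, served as a second comparison of cells with and without the reporter and for levels given beside those of MEPs. For 1 P2- CMP the subtype label reads MEP, and it was kept as a CMP.

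RUNX1 is a DNA-binding transcription factor that acts as a heterodimer with CBFB and is required for the formation of blood stem cells and for megakaryocyte maturation. Its gene is transcribed from a distal promoter, P1, and a proximal promoter, P2, which give proteins with different N termini. MEPs are progenitors from which erythroid cells and megakaryocytes arise, and the erythroid branch expands its ribosomes and mitochondria early, whereas megakaryocytes build an actin-rich cytoskeleton, granules and receptors that signal through tyrosine kinases and G proteins.

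Runx1 itself lies on the minus strand of chromosome 16 from 92601466 to 92826149 (GRCm38, GENCODE vM21). Its level, in counts scaled to a common total of reads on mouse genes (CPM), was 0 in the lowest, 17.1 in the median and 81.7 in the highest P2- MEP, and 0, 56.6 and 273.2 in the P2+ MEPs. The ranges overlapped, with the median P2+ cell inside the range of the P2- cells. In the pooled reads, that is the summed reads of all cells of a population divided by their summed reads on mouse genes, Runx1 had 23.4 CPM in P2- and 57.0 in P2+ MEPs. P2+ over P2-, the log2 ratio was 1.29, with an exact conditional binomial 95% interval from 1.16 to 1.41. With every cell thinned to 100000 of its mouse reads, a Runx1 read was found in 31 of 56 P2- cells (55.4%) and 40 of 47 P2+ cells (85.1%). Cbfb, the gene of its binding partner, had 29.5 and 59.4 CPM, which is a log2 ratio of 1.01 (0.90 when its highest cell was left out). The protocol has no molecular identifiers, so all intervals here cover counting error only. In what follows, 3 levels in a row are those of the lowest, median and highest cell, a gene is said to be read in a cell where that cell has a read of it after this thinning, a pair of levels is the pooled level in P2- and then in P2+ MEPs where CMPs are not named, and a ratio is the log2 ratio of the pooled levels. The single-cell ranges of both populations overlapped for every gene given here.

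Promoter sequences are shown for the gene of the reporter and for a gene at each end of the comparison, Meis1 (higher in P2+ MEPs) and Mst1r (lower). They come from RefSeq windows on GRCm38.p6 of 250 bases before to 50 bases after an annotated start and were searched for the GATA factor motif GATAA, the RUNX motif TGTGGT, the KLF1 motif CCACACCC and the ETS motif GGAAGT, on both strands. Capitals mark the matches. The distal promoter of Runx1 held a pair of TGTGGT matches, both on the opposite strand, just after the start.
Runx1 distal promoter, 30 bases within the first 50 after the start (chr16:92826025-92826054, minus strand): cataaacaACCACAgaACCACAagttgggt
Runx1 proximal promoter, 250 bases before the start (chr16:92697330-92697579, minus strand): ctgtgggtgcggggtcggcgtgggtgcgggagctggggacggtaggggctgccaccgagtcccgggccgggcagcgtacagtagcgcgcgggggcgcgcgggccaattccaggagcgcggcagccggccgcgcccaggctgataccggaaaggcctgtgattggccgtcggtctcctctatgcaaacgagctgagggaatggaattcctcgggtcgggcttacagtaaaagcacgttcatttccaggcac
Meis1 promoter, 250 bases before the start (chr11:19018970-19019219, minus strand): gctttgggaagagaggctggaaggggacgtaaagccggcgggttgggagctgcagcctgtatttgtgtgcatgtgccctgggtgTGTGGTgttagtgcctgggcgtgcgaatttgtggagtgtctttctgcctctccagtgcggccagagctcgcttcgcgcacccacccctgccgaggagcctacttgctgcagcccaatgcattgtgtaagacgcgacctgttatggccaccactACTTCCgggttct
Mst1r promoter, 250 bases before the second annotated start (chr9:107914753-107915002, plus strand): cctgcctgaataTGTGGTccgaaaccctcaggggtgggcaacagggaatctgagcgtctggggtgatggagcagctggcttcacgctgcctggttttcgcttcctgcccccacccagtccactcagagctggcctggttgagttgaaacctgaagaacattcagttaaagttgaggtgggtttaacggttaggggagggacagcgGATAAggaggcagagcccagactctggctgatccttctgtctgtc
The 250 bases before the proximal Runx1 start held no match to these 4 motifs. The 250 bases before the distal start and the 50 after the proximal start are not shown, so the promoters of Runx1 are not compared over the same stretch. Meis1 had TGTGGT 166 bases before its start and GGAAGT on the opposite strand 13 bases before it, and Mst1r had TGTGGT further upstream and GATAA 45 bases before its second start. That second start lies inside the annotated Mst1r gene, and the window of its first start is not shown.

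Of the 7782 genes compared, 507 (6.52%) were at least 2-fold higher and 3.25% at least 2-fold lower in P2+ than in P2- MEPs by pooled CPM. A gene was compared where, at 100000 reads per cell, no fewer than 25% of the cells of the population with the higher level had a read of it and its level there was 10 CPM or more. Of the higher genes 494 were protein coding, and 7022 genes differed by less than 2-fold in either direction. Because the filter looks at the higher population, a filter blind to the population was added after the values were seen, and it left 388 genes higher (5.16%) and 190 lower (2.53%) of 7515. The share of higher genes among all that passed 2-fold was 66.7% when reads on mouse genes were the denominator and 12.5% (205 higher, 1429 lower) when the ERCC spike-in reads were. P2+ MEPs had a median of 39.3 mouse reads per ERCC read and P2- MEPs 67.4. The median log2 ratio of all genes compared was -0.01 on the first scale and -0.63 on the second. All ratios below are relative to the reads on mouse genes, list medians are given as the difference from the median of all genes compared, and on the ERCC scale the median of every list described was below 0, other than that of the immediate early genes and leaving aside the cell type marker lists.

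**Figure D1:**
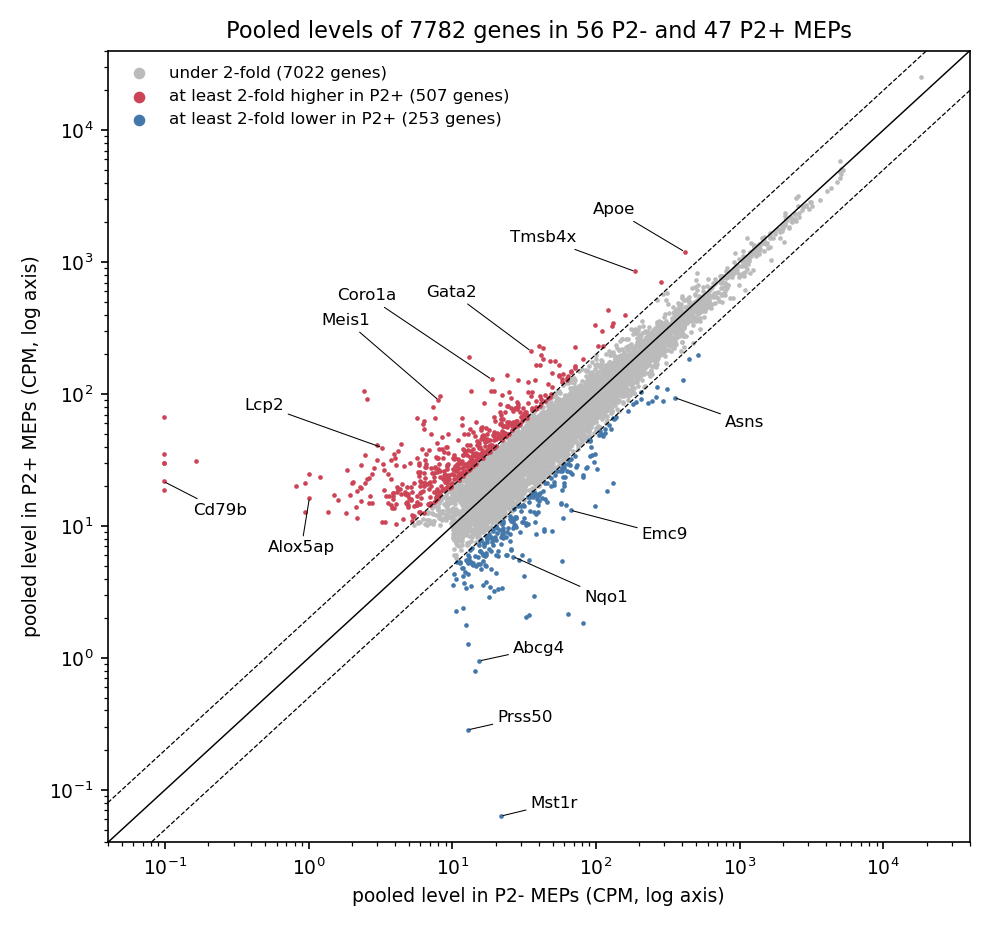
Pooled level of each gene compared in P2- MEPs (x axis, CPM, log scale) and in P2+ MEPs (y axis, CPM, log scale), each point being 1 of 7782 genes and the lines marking equal levels (solid) and a 2-fold difference (dashed). A gene without a read in P2- MEPs is drawn at the level of 3 reads. Relative to the reads on mouse genes, Meis1 and Gata2 lie above the 2-fold line and Mst1r and Asns below it.

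Reads on mouse genes per cell ran from 295064 to 888658 in P2- MEPs and from 305186 to 1234330 in P2+ MEPs, with medians of 520540 and 624148. At 100000 reads the median number of genes with a read was 5960 in P2- MEPs and 5458 in P2+ MEPs. The mitochondrial share of the reads had medians of 3.92% and 4.61%. Kit, the receptor of the gate, had 293.3 CPM in P2- and 262.2 in P2+ MEPs, and Gata1, the factor shared by both MEP lineages, 265.9 and 237.8. Fcgr3 (CD16) and Ly6a (Sca1), whose antigens were low or absent in the gate, had no read. Slamf1, which encodes the CD150 of the gate, had 8.23 CPM in P2- and 97.2 in P2+ MEPs. Cd34, whose protein divides the MEP and CMP gates, had a read in 0 of 56 P2- cells and in 6 of 47 P2+ cells after thinning (1 and 7 without it), and leaving out those 6 cells gave 494 genes higher, 63.5% of those past 2-fold. Markers of other cell types had the following levels. The summed level per cell of 28 granulocyte/monocyte markers had a median of 0 CPM in P2- MEPs (highest 207.7) and 66.9 in P2+ MEPs (0 to 518), with Csf1r at 0 in both and 20 and 14 markers at 0. The stem and multipotent list had medians of 128 (0 to 313.4) and 261.9 CPM (0 to 925), the mast and basophil list 379.3 (69.5 to 877) and 561 (155 to 1778), and the lymphoid list 0 (0 to 48.5) and 0 (0 to 264.7). The macrophage list had 34.96 (0 to 368.01) and 1.68 (0 to 215.8), the hepatocyte list 3.06 (0 to 161) and 13.8 (0 to 139), with Alb at 0 in P2+ MEPs, and the endothelial list 99.9 (17.8 to 233.4) and 128 (0 to 267.04). The megakaryocytic list had medians of 793 (429 to 1554) and 2098 CPM (445 to 7935), and the erythroid list 8601 (4512 to 14687) and 4154 (2307 to 12777). The part of these markers in the ratios below was not tested.

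Among the 25 genes with the highest ratios outside the lists set aside, some encode transcription factors, signaling proteins and secreted proteins. Meis1, a TALE homeobox factor that acts with HOX proteins and lies on chromosome 11 (18879817 to 19018985), had 0, 0 and 87.98 CPM in the lowest, median and highest P2- MEP and 0, 45.0 and 568 in P2+ MEPs. The median P2+ cell lay inside the P2- range. Its pooled log2 ratio was 3.49 (3.30 to 3.69), with reads in 14 of 56 and 35 of 47 cells, and 18.3% of its exon bases overlap Gm16140 and Gm37818, from which its reads cannot be told apart without strand. It was also read in CMPs, at 126 CPM in P2- and 159 in P2+ cells. Prdm11, a PR-domain factor, had 2.97 and 31.5 CPM in P2- and P2+ MEPs (log2 ratio 3.40).

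Of the 24 lymphoid markers Cd79b alone could be compared, and 17 had no read in P2+ MEPs. Cd79b, a signaling chain of the B cell receptor on chromosome 11 (106311341 to 106314762), had no read in P2- MEPs, where 3 reads would be 0.0980 CPM, and 21.8 CPM in P2+ MEPs. Its log2 ratio was 7.79 with P2- MEPs set to 3 reads, with a counting interval from 7.49 upwards. It was read in 12 of 47 P2+ MEPs, so that the median P2+ cell was at 0 as well, and its level was 76.4 CPM in P2- and 84.4 in P2+ CMPs. Fcer1g, the common gamma chain of Fc receptors, had 0.948 and 12.7 CPM in P2- and P2+ MEPs (log2 ratio 3.74) and was read in 2 and 12 cells. In P2- MEPs 1 cell held 69.0% of the Fcer1g reads. Alox5ap, which presents arachidonic acid to 5-lipoxygenase, had 1.01 and 16.3 CPM, with a log2 ratio of 4.01 (3.49 to 4.58). Without thinning it had a read in 3 of 56 and 23 of 47 cells, and after thinning in 0 and 20, and 13.3% of its exon bases overlap Gm19719. Clec4d, a C-type lectin receptor of myeloid cells, had 7.58 and 65.4 CPM (log2 ratio 3.11) with reads in 14.3% and 53.2% of the cells. A transcribed V segment of the T cell receptor beta locus, Trbv13-2, had a log2 ratio of 7.57 and was read in 2 and 14 cells. It contrasted with Cd79b in that the CMPs had little of it, 1.04 CPM in P2- and 2.53 in P2+ CMPs.

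The other genes of this group included secreted and membrane proteins. Angpt1, the TIE2 ligand angiopoietin 1, had 0.948 CPM in P2- and 21.2 in P2+ MEPs (log2 ratio 4.48, 3.95 to 5.07), with reads in 3 and 19 cells and 14.2% of its exon bases shared with Gm17473. Fxyd5, a regulator of the sodium pump and of cell adhesion, had 6.37 and 62.4 CPM (log2 ratio 3.29) with reads in 14.3% and 59.6% of the cells. Cd84, a SLAM family receptor, had a log2 ratio of 3.65 and Galnt6, which starts O-linked glycosylation, one of 4.62, although 11.4% of the Galnt6 exon bases overlap Galnt6os. In P2- MEPs 1 cell held 70.4% of the Cd84 reads, and 1 cell held 88% of the Galnt6 reads. Over the 25 genes, 20 were read in fewer than 50% of the P2+ MEPs and 19 had a median P2+ cell at 0 CPM. For 17 of the 25 both CMP populations had a higher pooled level than P2+ MEPs.

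**Figure D2:**
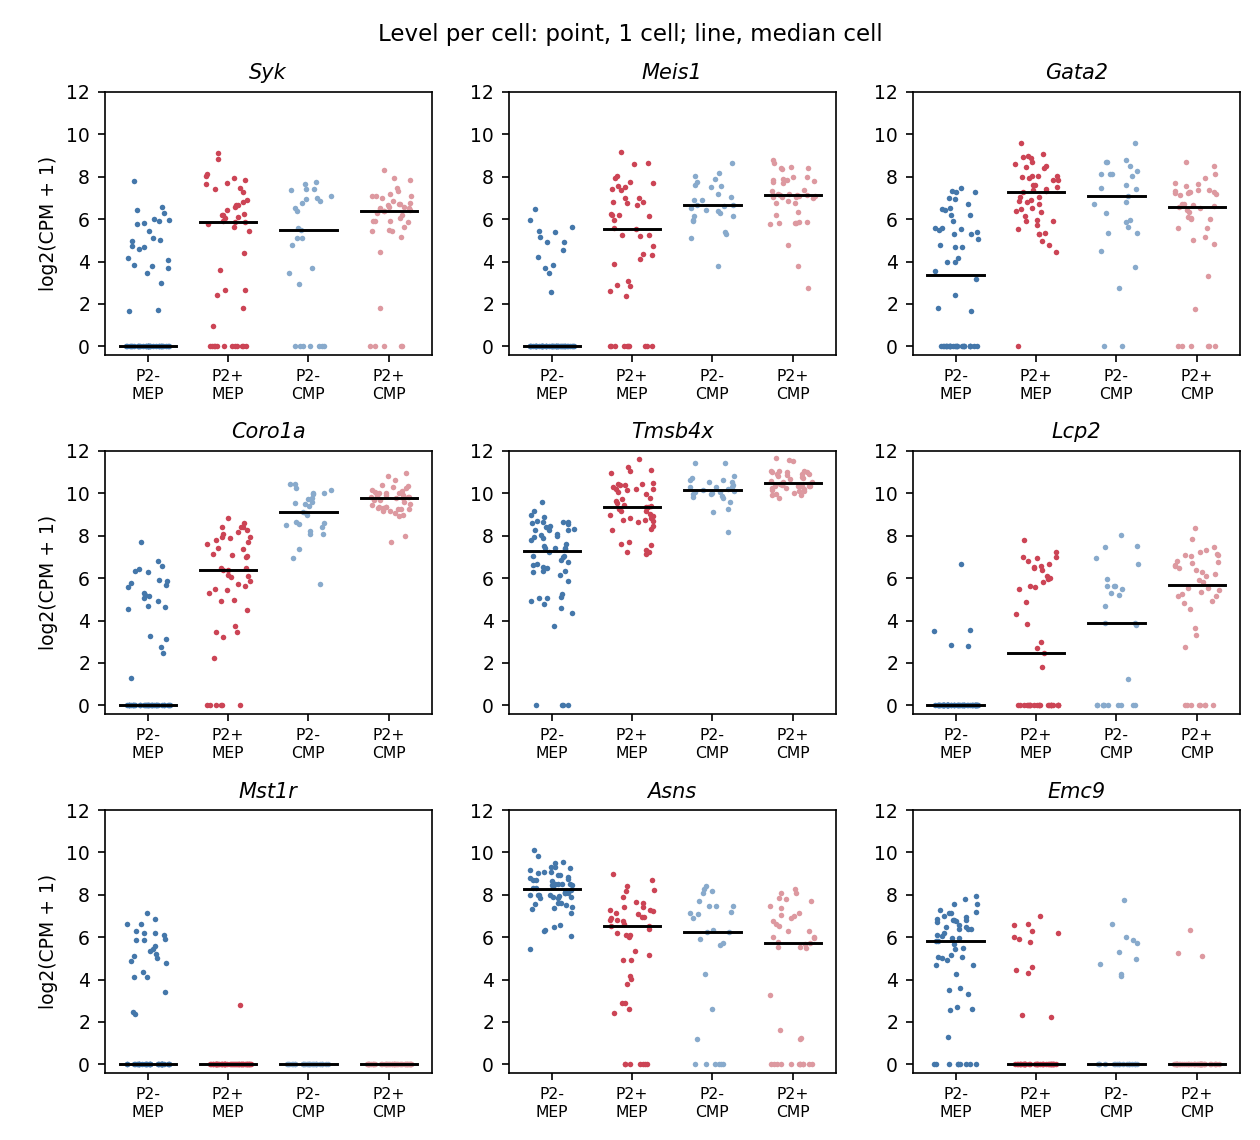
Level of 9 genes per cell (y axis, log2 of CPM + 1) in P2- and P2+ MEPs and in P2- and P2+ CMPs (x axis), each point being 1 cell and the black line the median cell. Relative to the reads on mouse genes, the P2+ MEP median of Gata2 and Tmsb4x lies above the P2- MEP median with overlapping ranges, that of Asns and Emc9 lies below it, and Mst1r is at 0 in all CMPs.

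Of 58 compared members of a list of progenitor transcription factors, 16 were at least 2-fold higher in P2+ MEPs (27.6%, beside 6.52% of all genes). Only 1 was lower (1.72%, beside 3.25%), and the median was 0.45 above that of all genes. Gata2, a factor of stem cells, mast cells and early megakaryocytes, had 0, 9.28 and 174 CPM in the lowest, median and highest P2- MEP and 0, 153 and 781 in P2+ MEPs. A Gata2 read was found in 28 of 56 P2- cells and 46 of 47 P2+ cells (97.9%), and the pooled log2 ratio was 2.59 (2.499 to 2.69). Its level in CMPs was 174 CPM in P2- and 102 in P2+ cells, the opposite order from MEPs. Mef2c, a MADS-box factor of megakaryocytes and B cells, had 0, 19.8 and 180 CPM in P2- MEPs and 0, 160 and 1236 in P2+ MEPs (log2 ratio 2.24, 2.15 to 2.33). Zeb2, a zinc finger repressor, had 33.8 and 124 CPM (log2 ratio 1.87), and Elf1, an ETS factor, 54.9 and 166 (1.60). The cofactors Cited2 and Nrip1 and the helix-loop-helix inhibitor Id1 had log2 ratios of 1.95, 1.74 and 1.74. The lower member was Cebpb, a factor of granulocytes and macrophages, at 12.9 and 4.34 CPM (log2 ratio -1.58). Without the 6 P2+ MEPs with a Cd34 read the list median was 0.30 above that of all genes, and 0.29 when each gene's highest cell was left out. With the filter blind to the population, 14 of 56 members were higher and 0 lower.

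Genes of the actin cytoskeleton had higher levels in P2+ MEPs in many single cells. Of 79 compared, 63 had a ratio above 0. At least 2-fold higher were 18 (22.8%, beside 6.52% of all genes), and 2 were lower (2.53%, beside 3.25%). The median was 0.49 above that of all genes, and the filter blind to the population gave 18 and 2 of 80. The summed level of the list per cell ran from 10668 to 18967 CPM in P2- MEPs (median 14417) and from 14386 to 25700 in P2+ MEPs (median 18964), and 23 of 47 P2+ MEPs lay above the highest P2- MEP. Tmsb4x, which encodes the actin monomer binding thymosin beta 4, had 0, 157 and 765 CPM in P2- MEPs and 139, 663 and 3104 in P2+ MEPs. It was read in 91.1% and 100% of the cells, so the difference lay mostly in the level per cell, with a pooled log2 ratio of 2.19 (2.15 to 2.23). Zyx, a focal adhesion protein, had 0, 7.88 and 271.9 CPM and 0, 155 and 1261, and was read in 51.8% and 91.5% of the cells. Its pooled log2 ratio was 2.39 (2.30 to 2.47). Coro1a, which binds filaments in leukocytes, had 18.8 and 129 CPM (log2 ratio 2.79), and Gmfg, which prunes actin branches in blood cells, 42.8 and 184 (2.11). Tpm4, a tropomyosin of platelets, had 7.78 and 42.4 CPM (2.45), Vim, an intermediate filament gene, 285.7 and 704 (1.30), and Myh9, nonmuscle myosin heavy chain, 44.0 and 99.0. The lower members were Enah, whose log2 ratio went from -1.75 to -0.43 without its highest cell, and Nckap1, a subunit of the WAVE complex, at 29.8 and 9.03 CPM (log2 ratio -1.72).

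Genes of immune-type tyrosine kinase signaling, the pathway of ITAM receptors that also serves the collagen receptor of platelets, included higher members from receptor chain to effector. Of 52 compared, 19 were at least 2-fold higher (36.5%, beside 6.52% of all genes) and 1 lower (1.92%, beside 3.25%). The median was 0.59 above that of all genes. The summed level per cell had a median of 1983 CPM per P2- cell (1147 to 3406) and 3356 per P2+ cell (2169 to 5203), and 22 of 47 P2+ MEPs were above the P2- range. Syk, the kinase that docks on ITAMs, had 0, 0 and 218.9 CPM in P2- MEPs and 0, 57.2 and 548 in P2+ MEPs, so that the ranges overlapped while the pooled log2 ratio was 2.15 (2.03 to 2.28). It was read in 37.5% and 61.7% of the cells. Of the adapters, Lcp2 (SLP-76) had 3.23 and 39.4 CPM (log2 ratio 3.61), with reads in 4 and 24 cells. In P2- MEPs 1 cell held 84.8% of the Lcp2 reads. Lat had 21.6 and 72.5 CPM (1.75), and Fyb, which links SLP-76 to integrins, 12.9 and 49.7 (1.94). The phospholipase Plcg2, which acts below these adapters, had 7.16 and 50.2 CPM (2.81). Dok2, an inhibitory adapter, was also higher, at 0, 0 and 93.0 CPM in P2- MEPs and 0, 80.4 and 410 in P2+ MEPs (pooled log2 ratio 2.51, 2.38 to 2.64). The lipid kinase subunits went apart, with Pik3cd at 49.7 and 113 CPM (1.18) and Pik3r2, the lower member, at 37.0 and 12.7 (-1.54). Blind to the population, 15 of 48 members were higher and 1 lower.

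**Figure D3:**
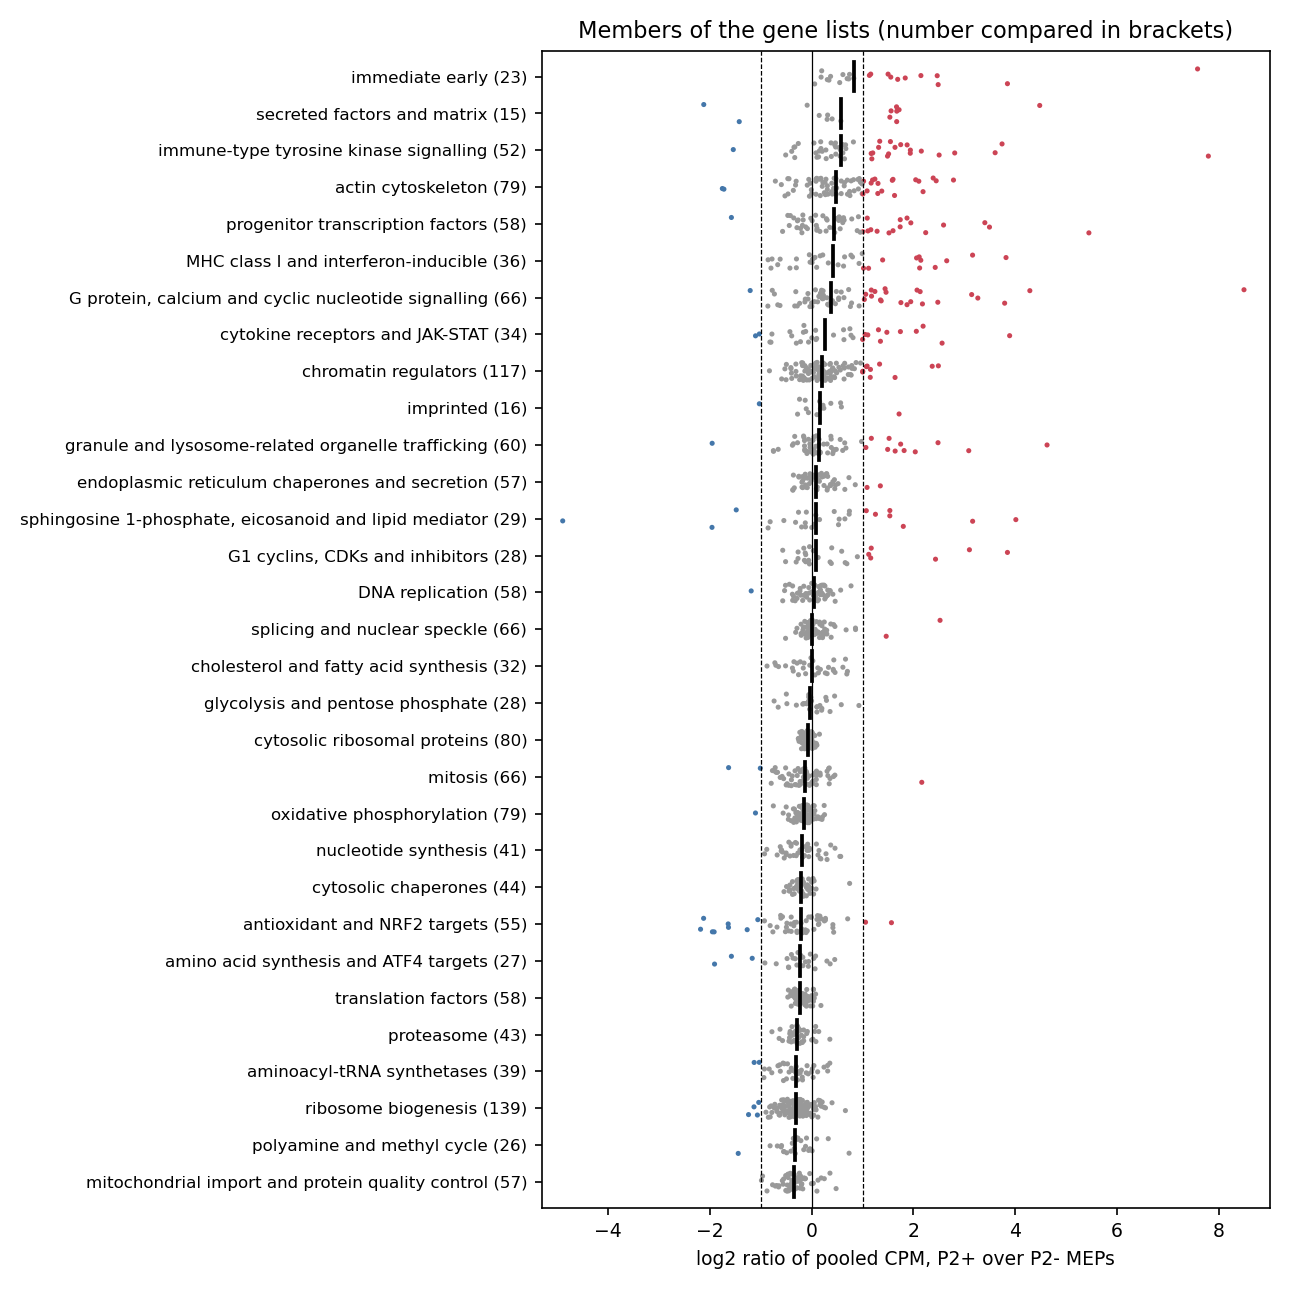
Log2 ratio of pooled CPM, P2+ over P2- MEPs (x axis), of the compared members of each gene list (y axis, number of genes in brackets), each point being 1 gene, the thick lines the list medians and the dashed lines a 2-fold difference. The cell type marker lists are not drawn. Among the lists drawn and relative to the reads on mouse genes, the immediate early list has the highest median, 0.84 above that of all genes, and mitochondrial import the lowest, 0.33 below it.

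Of 66 compared genes of G protein, calcium and cyclic nucleotide signaling, 21 were at least 2-fold higher (31.8%, beside 6.52% of all genes). Only 1 was lower (1.5%, beside 3.25%), and the median was 0.40 above that of all genes. Because 6 of these genes are also in the lists set aside, the count without them was 15 higher and 1 lower of 60. The filter blind to the population also gave 15 and 1 of 60, with a median 0.32 above that of all genes. The effectors Plcb2, the phospholipase C below Gq, at 8.49 and 47.3 CPM in P2- and P2+ MEPs (log2 ratio 2.48), and Orai1, the pore of store-operated calcium entry, at 4.21 and 19.1 (2.18), were among the higher. Rgs18, which limits Gq signaling in platelets, had 14.5 and 60.9 CPM (2.07), and P2rx1, an ATP-gated channel of platelets, 2.97 and 41.2 (3.79). Both are in the megakaryocytic marker list. The lower gene was Pde4d, a phosphodiesterase that degrades cAMP (-1.21, and -0.96 with equal weight per cell).

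Immediate early genes, which are transcribed soon after a signal and also during tissue dissociation, had higher levels in P2+ MEPs. Of 23 compared, 11 were at least 2-fold higher (47.8%, beside 6.52% of all genes) and 0 were lower. All 23 had a ratio above 0, with a median 0.84 above that of all genes. With the filter blind to the population 7 of 19 were higher and the median was 0.74 above. Their summed level per cell had a median of 809 CPM per P2- cell (242.5 to 2411) and 1900 per P2+ cell (374.4 to 4945), and 14 of 47 P2+ MEPs exceeded the P2- range. Fos had 0, 57.5 and 888 CPM in the lowest, median and highest P2- MEP and 0, 287.2 and 2293 in P2+ MEPs (pooled log2 ratio 1.84, 1.79 to 1.89). It was read in 73.2% and 80.9% of the cells, whereas Egr1, at 28.7 and 127 pooled CPM (2.15), was read in 30.4% and 78.7%. Junb had 71.6 and 157 CPM (1.13, and 0.99 without the P2+ MEPs with a Cd34 read) and Klf6 6.86 and 37.9 (2.47). Nr4a1 had, without thinning, a read in 2 of 56 P2- cells and 24 of 47 P2+ cells, but 1 cell held more than 20% of its reads. The CMPs had list medians of 2087 CPM per P2- cell and 1833 per P2+ cell.

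Of 36 compared genes of MHC class I presentation and interferon-inducible genes, 11 were at least 2-fold higher (30.6%, beside 6.52% of all genes) and 0 lower. Psmb8, a subunit of the immunoproteasome, had 0, 0 and 86.2 CPM in P2- MEPs and 0, 19.99 and 189 in P2+ MEPs, with reads in 12.5% and 57.4% of the cells and a pooled log2 ratio of 2.06 (1.86 to 2.27), and it shares 14.7% of its exon bases with Gm20496. Its neighbor Tap1, a subunit of the peptide transporter, had 7.68 and 33.4 CPM (2.12), and Ifi47 and Slfn9, induced by interferon, 9.28 and 49.9 (2.43) and 6.14 and 38.7 (2.65). Ifitm3 had 2.45 and 34.6 CPM (3.82) and Gimap6, a GTPase of lymphocytes, 3.92 and 35.1 (3.16). The group was less uniform than its count, since its median was 0.44 above that of all genes with all compared members, 0.26 when each gene's highest cell was left out and 0.23 with the filter blind to the population (8 of 31 higher), and 5 of 47 P2+ MEPs were above the P2- range of summed levels (1064 to 3004 CPM).

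Most chromatin and splicing genes differed by less than 2-fold. Of 117 compared chromatin regulators 10 were at least 2-fold higher (8.55%, beside 6.52% of all genes) and 0 lower, with a median 0.22 above that of all genes. The DNA methyltransferase gene Dnmt3b (67.2 and 150 CPM, log2 ratio 1.16) and the methylcytosine oxidase gene Tet2 (7.51 and 23.4, 1.64) were among the higher. Dnmt3a had a log2 ratio of 1.002, which was 0.96 without the P2+ MEPs with a Cd34 read and 0.94 without its highest cell, and Dnmt1 had one of 0.35. Ncoa3, a histone acetyltransferase coactivator, had 0, 1.67 and 73.1 CPM in P2- MEPs and 0, 42.9 and 348.5 in P2+ MEPs (pooled log2 ratio 2.37, 2.23 to 2.51). Of 66 splicing genes only Celf2 and Mbnl2, regulators of alternative exons, passed 2-fold (3.03%, beside 6.52% of all genes higher). Celf2 had 0, 11.8 and 228.1 CPM in P2- and 0, 177 and 703 in P2+ MEPs, was read in 51.8% and 93.6% of the cells, and had a log2 ratio of 2.52 (2.44 to 2.61). The splicing list as a whole had a median 0.03 above that of all genes.

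Among the 25 genes with the lowest ratios, several were almost without reads in P2+ MEPs and in CMPs. Mst1r, the receptor tyrosine kinase RON, lies on chromosome 9 (107906873 to 107920383). It had 0, 0 and 139 CPM in the lowest, median and highest P2- MEP and 0, 0 and 5.94 in P2+ MEPs, and its pooled level was 21.8 and 0.0633 CPM, the latter from 2 reads. Without thinning a read was found in 25 of 56 P2- MEPs and in 1 of 47 P2+ MEPs, and after thinning in 23 and 0. The log2 ratio was -8.43 (-11.48 to -6.57), and no CMP had a read. Prss50, a serine protease, Abcg4, a sterol transporter, and Asb17 were likewise without a read in CMPs. Their pooled levels were 12.8 and 0.285 CPM (log2 ratio -5.49), 15.4 and 0.950 (-4.02) and 20.9 and 3.33 (-2.65). For each of them 1 P2+ MEP held much of the P2+ reads, namely 100% for Prss50 and Abcg4 and 54.3% for Asb17.

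Genes read in most P2- MEPs also were lower. Emc9, a subunit of the complex that inserts membrane proteins, had 0, 55.0 and 240.9 CPM in P2- MEPs and 0, 0 and 128 in P2+ MEPs. It was read in 44 of 56 and 11 of 47 cells, with a log2 ratio of -2.34 (-2.49 to -2.18). Oaf, a secreted protein, had 0, 56.8 and 235.2 CPM and 0, 0 and 137 (log2 ratio -2.12), with reads in 85.7% and 34.04% of the cells. D1Ertd622e had 34.1 and 5.54 CPM (-2.62) and Crip2, a LIM domain protein, 43.2 and 9.22 (-2.23). Camsap2, which caps microtubule minus ends and was read in only 30.4% of P2- MEPs, had 12.9 and 1.27 CPM (-3.35). All 40 of its reads in P2+ MEPs were in 1 cell. Over the 25 genes, 17 were read in fewer than 50% of the P2- MEPs, and all had a median P2+ cell at 0 CPM. For 22 both CMP populations had a lower level than P2- MEPs.

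Nuclear genes for mitochondrial import and protein quality control were lower together by small amounts. Of 57 compared, 0 passed 2-fold in either direction, but 50 had a ratio below 0, and the median was 0.33 below that of all genes. The summed level per cell had a median of 14658 CPM per P2- cell (11701 to 17177) and 11626 per P2+ cell (7036 to 15006), and 24 of 47 P2+ MEPs lay below the lowest P2- MEP. Phb, prohibitin of the inner membrane, had 100, 251.9 and 420 CPM in P2- MEPs and 4.90, 133 and 372.01 in P2+ MEPs, with a read in every cell of both populations and a pooled log2 ratio of -0.69 (-0.74 to -0.63). The lowest ratio was that of Grpel2, a nucleotide exchange factor of the import motor (28.3 CPM in P2+ MEPs, -0.99), and the highest that of Spg7, a protease of the inner membrane (0.48). The CMPs had list medians of 9903 CPM per P2- cell and 8849 per P2+ cell. Of 79 oxidative phosphorylation genes 1 was at least 2-fold lower (1.27%, beside 3.25% of all genes). Their median was 0.14 below that of all genes (0.08 below without the P2+ MEPs with a Cd34 read), and 20 of 47 P2+ MEPs lay below the P2- range. The 9 genes encoded by mitochondrial DNA had a median 0.14 above that of all genes.

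Ribosome biogenesis genes were also lower by small amounts. Of 139 compared, 4 were at least 2-fold lower (2.88%, beside 3.25% of all genes) and 0 higher, 18 had a ratio above 0, and the median was 0.29 below that of all genes. Their summed level per cell had a median of 34903 CPM per P2- cell (28313 to 40018) and 28926 per P2+ cell (18963 to 39531), with 21 of 47 P2+ MEPs below the P2- range. Pwp2, a component of the small subunit processome, had 0, 114 and 423 CPM in P2- MEPs and 0, 31.9 and 285.8 in P2+ MEPs, was read in 92.9% and 53.2% of the cells and had a log2 ratio of -1.24 (-1.32 to -1.16). Mphosph6, an exosome cofactor that matures the 5.8S RNA of the ribosome, had 108 and 49.4 CPM (-1.13). Translation factors had 0 of 58 genes past 2-fold, 8 with a ratio above 0 and a median 0.22 below that of all genes, with 17 of 47 P2+ MEPs below the P2- range. The 80 compared genes of ribosomal proteins themselves had a median 0.07 below that of all genes. For the 39 aminoacyl-tRNA synthetases the measures differed in sign, with a list median 0.29 below that of all genes, while the median summed level per cell was 8359 CPM in P2- and 8394 in P2+ MEPs. Their pooled sum was 8428 and 8054 CPM, and 9 of 47 P2+ MEPs lay below the P2- range and 0 above it. Sars2 and Yars2, which charge tRNAs in mitochondria, were the 2 synthetases past 2-fold (5.13%, beside 3.25% of all genes lower, with log2 ratios of -1.13 and -1.03, the latter -0.97 without its highest cell). Proteasome subunits (43 genes, median 0.27 below) and cytosolic chaperones (44 genes, 0.19 below) had 0 genes past 2-fold.

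**Figure D4:**
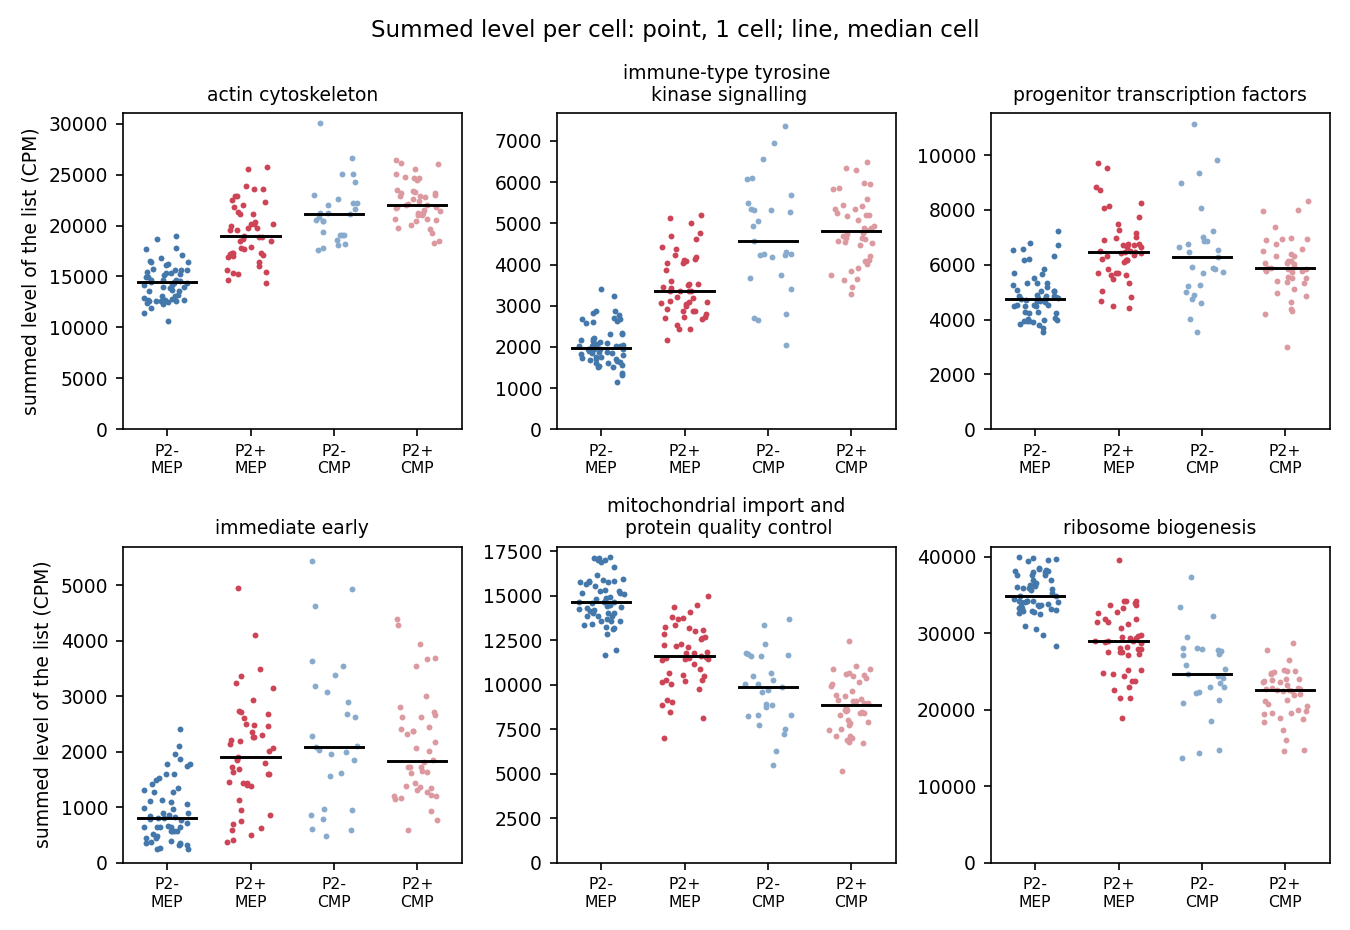
Summed level of 6 gene lists per cell (y axis, CPM) in P2- and P2+ MEPs and in P2- and P2+ CMPs (x axis), each point being 1 cell and the black line the median cell. Relative to the reads on mouse genes, 23 of 47 P2+ MEPs lie above the highest P2- MEP for actin genes and 24 below the lowest for mitochondrial import.

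In metabolism, genes of amino acid synthesis and antioxidant defense held members with lower levels in P2+ MEPs. Asns, asparagine synthetase and a target of ATF4, had 41.9, 309.4 and 1094 CPM in the lowest, median and highest P2- MEP and 0, 92.3 and 503 in P2+ MEPs. It was read in every P2- MEP and in 36 of 47 P2+ MEPs, with a pooled log2 ratio of -1.91 (-1.97 to -1.85), and its CMP levels, 96.5 and 79.9 CPM, lay at that of P2+ MEPs. Of 27 amino acid and ATF4 genes 3 were lower (11.1%, beside 3.25% of all genes) and 0 higher, the others being Cebpb and Oat, which links ornithine and proline (206 and 91.8 CPM, -1.17). Mtrr, methionine synthase reductase, had 39.4 and 14.5 CPM (-1.44) and was the only gene of the 26 polyamine and methyl cycle genes past 2-fold (3.85%, beside 3.25% of all genes), while Odc1, which starts polyamine synthesis, had 396 and 248.3 (-0.67). The folate enzyme gene Mthfd1 was read in every cell of both populations at 389 and 211.3 CPM (-0.88). Of 55 antioxidant and NRF2 target genes 8 were lower (14.55%, beside 3.25% of all genes) and 2 higher (3.64%, beside 6.52%). Without those in the lists set aside, 5 were lower and 2 higher of 50. Nqo1, a quinone reductase, had 26.6 and 5.86 CPM (-2.18) with reads in 22 and 3 cells, and Mgst3, a membrane glutathione transferase, 57.7 and 18.6 (-1.63). The glutathione transferases did not move as 1 group, since Gsta4 had 25.6 and 6.62 CPM (-1.95) and Gstm1 12.8 and 37.9 (1.57). Glycolysis and pentose phosphate genes (28 compared), nucleotide synthesis genes (41) and cholesterol and fatty acid synthesis genes (32) had 0 past 2-fold, with medians 0.01 below, 0.18 below and 0.02 above that of all genes, the first and the last of which changed sign when each gene's highest cell was left out.

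Lipid mediator genes moved in both directions. Of 29 compared, 7 were higher (24.1%, beside 6.52% of all genes) and 3 lower (10.3%, beside 3.25%), with a median 0.09 above that of all genes. Without those in the lists set aside, 6 were higher and 2 lower of 27. The filter blind to the population gave 5 and 2 of 26. Ptgs1, the cyclooxygenase that feeds thromboxane synthesis and a megakaryocytic marker, had 1.93 and 17.3 CPM (log2 ratio 3.16), and Abcg1, a cholesterol exporter, 15.8 and 55.0 (1.801). Apoe, the lipoprotein apolipoprotein E, had 0, 311.9 and 1448 CPM in P2- MEPs and 37.8, 1068 and 2979 in P2+ MEPs, was read in 98.2% and 100% of the cells, and had a log2 ratio of 1.54 (1.51 to 1.57). Sphk1, which makes sphingosine 1-phosphate and is in the erythroid marker list, had 0, 30.7 and 392 CPM in P2- MEPs and 0, 0 and 63.6 in P2+ MEPs, with reads in 36 of 56 and 1 of 47 cells and a log2 ratio of -4.89 (-5.26 to -4.54). It had no read in CMPs. Of 60 compared genes of granules and lysosome-related organelles, 11 were higher (18.3%, beside 6.52% of all genes) and 1 lower (1.67%, beside 3.25%). The median was 0.16 above that of all genes and 0.06 when each gene's highest cell was left out. Srgn, the proteoglycan core of granules, had 0, 93.4 and 307.8 CPM in P2- MEPs and 0, 324.4 and 825 in P2+ MEPs (1.75, 1.69 to 1.81), the median P2+ cell lying above the highest P2- cell. Rab27b, which docks granules and is a megakaryocytic marker, had 3.76 and 31.9 CPM (3.09), and Rab37, a granule GTPase, 11.8 and 65.8 (2.48). Bloc1s5, a subunit of the complex that builds such organelles, was lower at 57.5 and 14.9 CPM (-1.95). Of 15 compared genes of secreted factors and matrix, 7 were higher (46.7%, beside 6.52% of all genes) and 2 lower (13.3%, beside 3.25%). The filter blind to the population gave 4 and 2 of 12, and the median went from 0.59 to 0.37 above that of all genes. The elastin microfibril proteins Emilin1 (21.7 and 69.1 CPM) and Emilin2 (71.4 and 226.9, 1.67) were among the higher.

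The cell cycle lists had medians near that of all genes. Of 58 DNA replication genes 0 were higher and 1 lower (1.72%), and of 66 mitosis genes 1 was higher (1.52%, beside 6.52% of all genes) and 2 lower (3.03%, beside 3.25%), with medians 0.06 above and 0.12 below that of all genes. Cdc25b, the phosphatase that starts mitotic entry, had 8.53 and 38.2 CPM (log2 ratio 2.16), and Kif20a and Aurka, which act in late and early mitosis, had 38.2 and 12.3 (-1.63) and 132 and 65.5 (-1.01, and -0.95 without its highest cell). Of 28 genes of G1 cyclins, cyclin-dependent kinases and their inhibitors 6 were higher (21.4%, beside 6.52% of all genes) and 0 lower. With the filter blind to the population 4 of 26 were higher, and the median went from 0.09 to 0.005 above that of all genes. Pdcd4, an inhibitor of the translation helicase eIF4A, had 0, 10.0 and 120 CPM in P2- MEPs and 0, 42.9 and 560 in P2+ MEPs (2.43, 2.31 to 2.56).

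The shares of cells with a read were described for the higher and the lower genes, but they cannot decide whether these groups differ. The filter itself asked for a minimum share in the population with the higher level, and no share over all genes compared is given as a baseline. After thinning, P2+ MEPs also had fewer genes with a read than P2- MEPs (medians of 5458 and 5960). The 507 higher genes were read in a median share of 44.7% of P2+ cells and 28.6% of P2- cells, and 300 of them in fewer than 50% of P2+ MEPs. The lower genes were read in a median share of 51.8% of P2- cells and 21.3% of P2+ cells. In 69 of the higher and 22 of the lower genes a single cell held more than 20% of the reads of the higher population, and without each gene's highest cell 191 genes were lower and 66.1% of those past 2-fold were higher.

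**Figure D5:**
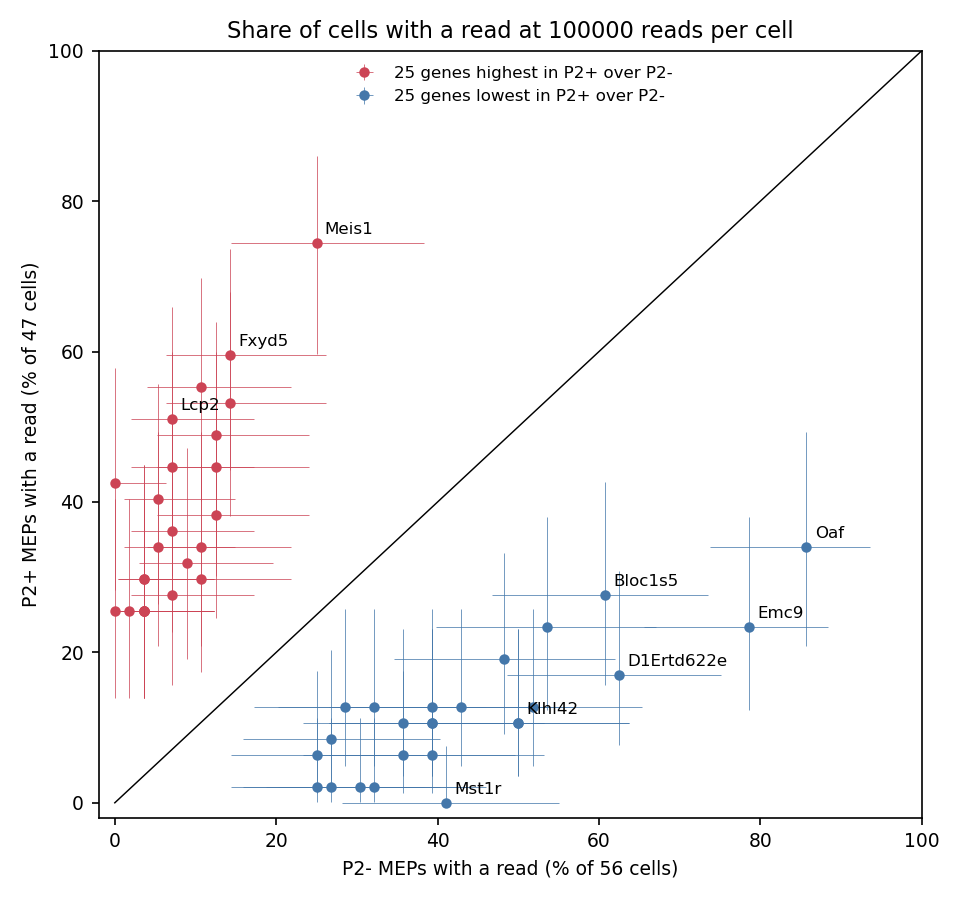
Share of cells with a read at 100000 reads per cell (%) in P2- MEPs (x axis) and P2+ MEPs (y axis) for the 25 highest and 25 lowest ratios, each point being 1 gene with its Clopper-Pearson 95% intervals and the line marking equal shares. The higher genes were read in 25.5% to 74.5% of P2+ cells and at most 25% of P2- cells.

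Some lists also varied together between the cells of 1 population, and others did so little. Within the 47 P2+ MEPs, Spearman's rank correlation between the summed megakaryocytic markers and the summed level of actin genes was 0.69, and within the 56 P2- MEPs 0.63. For the tyrosine kinase list these values were 0.57 and 0.38, and for the progenitor factors 0.46 and 0.53, but for the MHC class I and interferon list 0.09 and 0.10. Ribosome biogenesis genes had coefficients of -0.53 with the megakaryocytic markers and -0.61 with actin genes in P2+ MEPs, and 0.08 and -0.03 in P2- MEPs, while mitochondrial import had -0.40 and -0.44, and -0.13 and -0.37. With the erythroid markers mitochondrial import had 0.42 in P2+ and 0.60 in P2- MEPs, and ribosome biogenesis 0.22 and 0.01. In the same order actin genes had -0.20 and -0.545, the tyrosine kinase list -0.67 and -0.54, the progenitor factors -0.175 and -0.27, and the MHC class I and interferon list -0.35 and -0.01. These coefficients describe cells of 1 pool, whose lists share a denominator, the cell's reads on mouse genes, and have no p-value. The sums kept every member, and 1 compared gene of the tyrosine kinase list and 3 of the progenitor factors are also in the lists set aside.

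The CMPs, which share no cell with the MEPs but come from the same pool, gave the same comparison of P2+ with P2- cells in another compartment. Of the 7782 genes compared in MEPs, 7773 had at least 1 read in the pooled CMPs, and no minimum share or level was asked there. Of these, 2.93% were at least 2-fold higher and 4.67% lower in P2+ CMPs. Genes with few CMP reads are included, such as Crip2, with 28 reads in 1 P2- CMP and 0 in P2+ CMPs. Of the 507 genes higher in P2+ MEPs, 32 were at least 2-fold higher (6.31%) and 31 lower (6.11%) in P2+ CMPs, and the median log2 ratio in CMPs was 0.09 against -0.05 for all genes. Of the lower genes with a value in CMPs, 22 were higher (8.98%) and 44 lower (17.96%), with a median of -0.07. Runx1 was higher in both compartments, at 71.5 and 156 CPM in P2- and P2+ CMPs (log2 ratio 1.12). Emc9 was lower in both, with a CMP log2 ratio of -2.58 from reads in 10 P2- and 3 P2+ CMPs, and Ica1, an autoantigen with a BAR domain, was higher in both, at 2.55 and 22.7 CPM in MEPs and 28.5 and 86.1 in CMPs (1.60). Of the 25 genes with the highest MEP ratios, 21 differed by less than 2-fold between P2- and P2+ CMPs.

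The 4 motifs were counted near the starts of the genes past 2-fold and of all genes compared. TGTGGT was found in 13.7% of 554 windows of 404 higher genes, in 19.2% of 240 windows of 185 lower genes and in 910 of 7610 windows of the 6026 compared genes that the RefSeq table holds. CCACACCC was found in 5.42%, 1.67% and 3.59%, GGAAGT in 25.1%, 31.7% and 31.0%, and GATAA in 17.5%, 17.9% and 15.7% of these windows. Over all 32851 windows of the table the shares were 16.8% for TGTGGT, 3.56% for CCACACCC, 23.8% for GGAAGT and 25.4% for GATAA. The opposite strand of TGTGGT shares letters with CCACACCC, so that matches to these can overlap, and a match describes letters only and not a bound site.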

How the data were processed

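Single cells were sorted into wells and made into full-length cDNA libraries (modified Smart-Seq2) with ERCC spike-ins added. Per the submitters' processing notes and methods, the authors trimmed reads with Trimmomatic 0.36, aligned them with STAR 2.4.2a to GRCm38 and counted them with HTSeq 0.6.1p1 on GENCODE M12 exons, without strand. The authors deposited raw counts for 49585 features and 92 ERCC sequences, and alignment statistics in which unmapped reads are a percent of a cell's reads. Of the reads in MEPs, 25.2% were ambiguous and 7.57% fell on no gene; these rows and the other tallies, which name no gene, were left out of totals, and genes with near-identical copies or overlapping exons are uncertain. Positions come from GENCODE vM21, a later release on the same build.

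Cells under 250000 reads, over 25% unmapped or over 15% ERCC were removed. They were P2- MEP 251 (106960 reads, 53.2% unmapped, 99.9% ERCC), P2+ MEP 291 (27.9% unmapped) and P2+ CMP 371 (57.8% unmapped, 99.8% ERCC). Total reads per remaining MEP are at least 571806. Counts were summed over cells, and ratios, exact Poisson and conditional binomial intervals and Clopper-Pearson intervals (95%) were computed with Python 3.11.15, pandas 2.3.3, NumPy 2.4.6, SciPy 1.17.1 and Matplotlib 3.10.9. A population with 0 reads was set to 3 reads over the population. Thinning without replacement to 100000 reads left out 0 cells. The steps were tested on simulated data. No p-value was computed, since cells of 1 pool are not replicates; the study's own test took cells as replicates and was not used.

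The gene lists, the rule for named genes and the comparison itself were chosen with earlier results of these data known, so lists are described by counts and medians beside all genes and not tested. Named genes are the 25 highest and 25 lowest ratios outside the lists set aside (erythroid, megakaryocytic and much-described genes) with at most 20% of the reads of the higher population in 1 cell, members of the lists, and Runx1, and not all of them are named. Sequence windows were taken from RefSeq (GRCm38.p6), which matched 6026 of 7782 compared genes. Alternatives were equal weight per cell, DESeq2 1.42.0 and edgeR 4.0.16 factors (R 4.3.3), ERCC reads or reads without mitochondrial genes and Rn18s-rs5 as denominator, every deposited MEP, leaving out the highest cell of each gene, other filters and other thinning depths. A filter blind to the population and leaving out P2+ MEPs with a Cd34 read were chosen after seeing the data.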

Additional observations from a re-analysis of the deposited data

Results flagged for a closer look

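For 5 of the named genes the CMPs had a ratio past 2-fold in the opposite direction from MEPs, in 27 P2- and 42 P2+ CMPs, and with 1 sample per population the difference was not tested. Ube2cbp, a ubiquitin ligase lower in P2+ MEPs, had a log2 ratio of 3.27 in CMPs (2.45 and 23.6 CPM, reads in 14.8% and 28.6% of the cells). Of its reads, 1 cell held 55.6% in P2- CMPs and 1 cell 29.45% in P2+ CMPs. D1Ertd622e, also lower in P2+ MEPs, had 1.78 in CMPs, with reads in 14.8% and 33.3% of the cells. Arhgef25, a guanine nucleotide exchange factor, had 1.60, from 19 reads in 1 P2- CMP and 114 reads in 2 P2+ CMPs. Of the genes higher in P2+ MEPs, Clec4d had -1.36 in CMPs (45.8 and 17.8 CPM) and Galnt6 had -1.66, from 143 reads in 3 P2- CMPs and 90 reads in 2 P2+ CMPs, of which 1 cell held 56.6% and 48.9%.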

How the results depend on the processing

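The 50 genes with the highest and lowest ratios were past 2-fold in the same direction under all 8 alternatives of scaling and of cells. The counts of genes past 2-fold moved by over 1.5 times under 3 settings. With ERCC reads as denominator 205 genes were higher and 1429 lower, with a minimum share of 50% of the cells 207 and 139 of 5688, and with at least 50 CPM 151 and 76 of 4190. With no minimum share 748 genes were higher. DESeq2 size factors gave 570 higher genes, 71.6% of those past 2-fold, and edgeR's TMM factors 457, which is 62.0%. Of 86 genes, 82 moved outside their 95% counting interval with ERCC reads, 32 with equal weight per cell, 15 without each gene's highest cell and 15 without the P2+ MEPs with a Cd34 read. Other than with ERCC reads, at most 5 of 121 genes named as past 2-fold fell under it in any of 7 alternatives, and none with every deposited MEP. As differences from the median of all genes, list medians cannot move under the 4 changes of scale, which shift every gene alike. Under the other 5 alternatives 36 list medians stayed inside the 95% order-statistic interval of the median over their members, except chromatin regulators without each gene's highest cell (0.15) and cytosolic ribosomal proteins without the P2+ MEPs with a Cd34 read (-0.04). No paired analysis was possible because each population is 1 sample and cells carry only a number of their own. The level of 3 reads, which stood in for a count of 0, was 0.0980 CPM in P2- and 0.0950 in P2+ MEPs.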

Other observations

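Genes of cytokine receptors and JAK-STAT signaling included members outside the marker lists that differed between P2- and P2+ MEPs. Of 34 compared, 11 were at least 2-fold higher (32.35%, beside 6.52% of all genes) and 2 lower (5.88%, beside 3.25%). The median was 0.28 above that of all genes compared. The median was 0.17 above when each gene's highest cell was left out and 0.09 above with the filter blind to the population, which left 7 higher and 2 lower of 31. Without the 3 in the lists set aside, 10 were higher and 1 lower of 31.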
